A study of Mus musculus with 15 samples.

Results

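The output genes examined here are 7 transcription factor genes that carry the signal of the circadian clock to other genes: Dbp, Tef, Hlf, Nfil3, Bhlhe40, Bhlhe41 and Ciart. They were taken by gene name from 2 deposited tables joined by gene identifier, and all 7 of the 7 were found among 55536 genes. The RNA was poly(A)-enriched RNA of skeletal muscle in 15 samples, in 3 groups of 5, all labelled as male mice aged 2 months. The controls were labelled wild type. The knockout group was labelled as lacking Pdgfrb, which encodes the beta receptor of platelet-derived growth factor, in cells that express myogenin. The D489V group was labelled as carrying a constitutively active Pdgfrb in the same cells. Myogenin is switched on as muscle precursors differentiate, so other cells of the muscle keep their own Pdgfrb. The muscle, strain, litter, time of day and batch are not given in the labels, and nothing says whether the samples of a group were collected together. The comparisons ask how either change of Pdgfrb goes with the level of these clock outputs.

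In the circadian clock, CLOCK or NPAS2 pairs with BMAL1, the product of Arntl, and this pair binds E-boxes to drive the Per, Cry and Nr1d genes, whose products then repress it. Dbp is a classical direct target of the pair, and DBP, TEF and HLF, the PAR bZIP family, activate genes through D-boxes. NFIL3 (E4BP4) is a bZIP repressor of the same D-boxes, which is why the Dbp to Nfil3 ratio is used as a summary of the drive on D-box genes. BHLHE40 (DEC1) and BHLHE41 (DEC2) are bHLH repressors that bind E-boxes, and CIART (CHRONO) represses the CLOCK and BMAL1 pair. In muscle, as in liver, these genes oscillate over the day, so that the hour of collection enters every level.

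Each value is a gene's count after the authors' normalization and rounding, called a normalized count here. Their sum was 29815559 to 36489777 per sample, and 20799 to 23783 genes were above 0. Pdgfrb held 1673 to 1848 in controls, from 958 to 1628 in the knockout group and from 820 to 1062 in the D489V group, so its RNA was lowest in the group with the active allele. Xist, a transcript of female cells, was at 3165 in knockout replicate 3, although the labels call all mice male, and at 101 or less in the other samples. The 11 muscle fibre markers summed to 6049831 to 8589990 over all samples, with none at 0 in every sample. Ptprc, the CD45 gene of blood leukocytes and one of the lymphocyte markers, lay at 1716 in control replicate 5 and at 663, 1705 and 558 in knockout replicates 3, 4 and 5, against at most 160 elsewhere. Myh7, the slow myosin heavy chain, ran from 1581 in knockout replicate 1 to 94986 in knockout replicate 3. Control replicate 5, knockout replicates 3 to 5 and D489V replicate 3 were at 54117 or more, and all other samples at 37808 or less.

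Promoter sequences help to place the members in the clock, because E-boxes, D-boxes and the response element of the ROR and REV-ERB receptors (RORE) are the sites through which it acts. RefSeq promoters on GRCm38.p6, from 250 bases before to 50 bases after the start of the gene, were found for 6 of the 7 members, all but Bhlhe40. They were searched on both strands for CACGTG (E-box), TTANGTAA (D-box) and TAGGTCA (RORE), motifs whose letters do not overlap one another. Of 32851 promoters of this length, 7.15% held the E-box, 2.32% the D-box and 2.61% the RORE. The windows below show the matches in capitals with 10 bases on either side, on the strand of the gene. Ciart and Per3, the core clock gene closest to Dbp in these data, are shown for their repeated sites, and the others as the members with a single match. Of the other core clock genes, Per1 and Cry1 held an E-box, Arntl a RORE and Rorb a D-box, in 1 window each, not shown.

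Ciart, chr3:95882257-95882354, minus strand: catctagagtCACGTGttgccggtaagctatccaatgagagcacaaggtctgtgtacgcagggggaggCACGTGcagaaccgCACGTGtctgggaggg
Per3, chr4:151044806-151044880, minus strand: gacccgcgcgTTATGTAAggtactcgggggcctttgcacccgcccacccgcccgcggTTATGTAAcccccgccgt
Nfil3, chr13:52981035-52981061, minus strand: cgctcggaacTGACCTActaacacaca
Tef, first start, chr15:81802536-81802561, plus strand: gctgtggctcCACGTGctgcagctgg
Tef, second start, chr15:81811266-81811291, plus strand: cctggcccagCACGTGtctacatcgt
Bhlhe41, chr6:145865558-145865583, minus strand: gtacgttccgCACGTGagctgggtgc

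Ciart held 3 E-boxes, beginning 116, 58 and 44 bases before its start, and 29 of the 32851 promoters (0.0883%) held 3 or more. Per3 held 2 D-boxes, beginning 205 and 158 bases before its start, and 27 promoters (0.0822%) held 2 or more. Nfil3 held the RORE in its reverse orientation 12 bases before the RefSeq start, within an exon of the GENCODE annotation. Tef and Bhlhe41 held single E-boxes, 127 and 138 bases before the RefSeq starts of Tef and 153 bases before that of Bhlhe41. In the GENCODE annotation the first Tef site lay within an exon, and the second within the gene but outside its exons. The windows of Dbp and Hlf held none of these letters, which says nothing of sites elsewhere in these genes. A match is a description of the sequence and was not tested for binding.

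The members span a wide range of levels. Per kilobase of exon, the mean normalized count over the 15 samples was highest for Dbp, at 1044 ± 323 (SD, n = 15), with a range of 636 to 1725. Tef followed at 786 ± 140 and Bhlhe40 at 714 ± 162. The ranges of these 3 genes overlapped, and Tef lay above Bhlhe40 in only 8 of 15 samples, so their order is not fixed. Nfil3 was at 351 ± 130 and Bhlhe41 at 291 ± 70.4 per kilobase. Ciart and Hlf were the lowest, at 52.5 ± 35.2 and 33.6 ± 13.2 per kilobase. Of the neighbours in this order, Bhlhe41 and Ciart had ranges that did not overlap, with Bhlhe41 above Ciart in 15 of 15 samples. D-box activators and their repressor therefore differed in level by gene, with Dbp and Tef above Nfil3 and Hlf below it. In bulk muscle RNA, fewer cells of a type and less RNA per cell cannot be told apart.

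**Figure D1:**
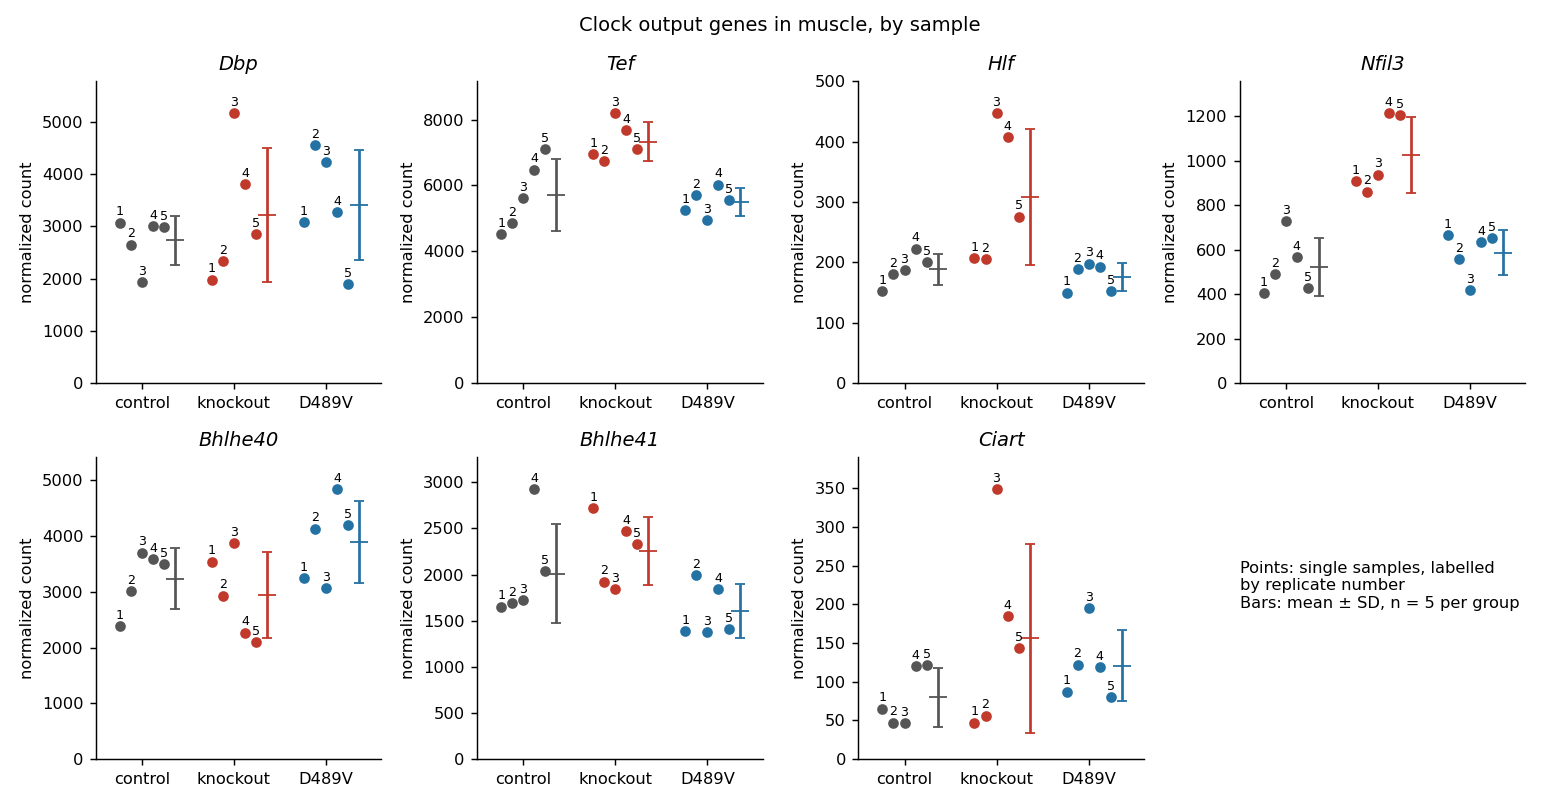
Normalized counts of each of the 7 members in the 5 control, 5 knockout and 5 D489V samples. Points are samples and bars are group means; all 5 knockout points of Nfil3, from 861 to 1212, lie above the control points, from 406 to 729.

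Dbp (ENSMUSG00000059824, GRCm38 chromosome 7, 45705088 to 45710203, plus strand) encodes the D-box binding activator. In controls 1 to 5 its normalized counts were 3075, 2654, 1941, 3011 and 2986. In knockout they were 1982, 2331, 5164, 3806 and 2847, and in D489V 3085, 4560, 4235, 3273 and 1903. Both mutant groups spread more widely than the controls, with knockout replicate 3 the highest of all and D489V replicate 5 the lowest, and the groups overlapped. The means were 2733 ± 472 (SD, n = 5) in controls, 3226 ± 1283 in knockout and 3411 ± 1049 in D489V. On the log2(value + 1) scale used for every change here, knockout differed from control by 0.17 (SE 0.24, limma adjusted p 0.726), with an interval of 95% from -0.34 to 0.69. D489V differed from control by 0.28 (limma adjusted p 0.728, interval -0.20 to 0.76). A change of Dbp was thus not detected within these intervals.

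Tef (ENSMUSG00000022389, chromosome 15, 81802421 to 81826863, plus strand), the thyrotroph embryonic factor of the same family, was at 4519, 4846, 5622, 6479 and 7112 in controls 1 to 5. It was at 6944, 6743, 8186, 7687 and 7106 in knockout and at 5243, 5711, 4937, 6023 and 5548 in D489V. All knockout samples lay above all D489V samples, while control 5 reached the knockout range and controls 1 and 2 lay below every D489V sample. The group means were 5716 ± 1087 (SD, n = 5), 7333 ± 592 and 5492 ± 419. Tef was higher in knockout than in D489V by 0.42 on the log2 scale, which is 1.33-fold (SE 0.085, limma adjusted p 0.00911). Against control the differences were 0.38 in knockout (limma adjusted p 0.305) and -0.04 in D489V (limma adjusted p 0.944).

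Hlf (ENSMUSG00000003949, chromosome 11, 90336536 to 90390895, minus strand), the hepatic leukemia factor gene and the least abundant of the family here, was at 153, 181, 188, 223 and 200 in controls. It was at 207, 206, 447, 408 and 276 in knockout and at 150, 189, 198, 193 and 152 in D489V. Knockout replicates 3, 4 and 5 stood above all 10 other samples of control and D489V, and replicates 1 and 2 lay within the control range. Hlf was 1.67-fold higher in knockout than in D489V, a log2 difference of 0.74 (SE 0.22, limma adjusted p 0.035), with groups that did not overlap. The call was lost without any single one of knockout replicates 3, 4 and 5 or D489V replicates 1, 2, 3 and 5. Against control the log2 differences were 0.64 in knockout (limma adjusted p 0.305) and -0.10 in D489V (limma adjusted p 0.854).

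Nfil3 (ENSMUSG00000056749, chromosome 13, 52967209 to 52981073, minus strand), the D-box repressor, stood apart most clearly. Its normalized counts were 406, 491, 729, 565 and 428 in controls, 908, 861, 937, 1212 and 1206 in knockout, and 664, 559, 419, 635 and 653 in D489V. All 5 knockout samples lay above all 10 others, and D489V samples lay within the control range. The means were 524 ± 130 (SD, n = 5), 1025 ± 170 and 586 ± 102. In knockout against D489V the log2 difference was 0.81 (SE 0.15), a 1.75-fold higher level, with a limma adjusted p of 0.00564. In knockout against control it was 0.98 (SE 0.17, interval 0.62 to 1.35), a 1.98-fold higher level. This ranked eighth of 15234 genes by p (unadjusted p 7.90e-05 in limma) and did not pass the adjustment over all genes (limma adjusted p 0.15). With all 15 samples in one limma fit the adjusted p of the same difference was 0.0319, and over all alternatives it ran from 0.0319 to 0.703.

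The E-box repressors did not move together. Bhlhe40 (ENSMUSG00000030103, chromosome 6, 108660629 to 108666925, plus strand) was at 2378, 3015, 3702, 3594 and 3495 in controls. It was at 3543, 2930, 3873, 2269 and 2099 in knockout and at 3247, 4134, 3065, 4844 and 4191 in D489V. Knockout replicates 4 and 5 were the lowest and D489V replicate 4 the highest of the 15, and all groups overlapped. Knockout against D489V gave a log2 difference of -0.42 (SE 0.18, limma adjusted p 0.109). With quantile normalization it was -0.53 and was called lower (limma adjusted p 0.0418). The differences from control were -0.16 in knockout and 0.26 in D489V (limma adjusted p 0.67 and 0.634).

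Bhlhe41 (ENSMUSG00000030256, chromosome 6, 145858243 to 145865558, minus strand) was at 1653, 1691, 1725, 2927 and 2040 in controls, 2723, 1923, 1843, 2469 and 2327 in knockout, and 1389, 1994, 1379, 1843 and 1409 in D489V. Most knockout samples were above most D489V samples, but D489V replicate 2 lay inside the knockout range, and control replicate 4 was the highest of all. Bhlhe41 was 1.41-fold higher in knockout than in D489V, a log2 difference of 0.50 (SE 0.14, limma adjusted p 0.0292). The differences from control were 0.19 in knockout and -0.31 in D489V (limma adjusted p 0.573 and 0.615). The call against D489V held in 4 of the 10 fits that leave out 1 sample.

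Ciart (ENSMUSG00000038550, chromosome 3, 95878503 to 95882251, minus strand) varied most. Its normalized counts were 65, 47, 46, 120 and 121 in controls, 47, 56, 349, 185 and 143 in knockout, and 87, 122, 195, 119 and 80 in D489V. Knockout replicate 3 was the highest of the 15 while knockout replicates 1 and 2 lay among the low controls, so that the knockout group covered nearly the whole range. The log2 differences were 0.71 in knockout (SE 0.52, interval -0.43 to 1.85) and 0.65 in D489V (SE 0.33, interval -0.08 to 1.37) against control, with limma adjusted p of 0.5 and 0.59. Between knockout and D489V the difference was 0.06 (limma adjusted p 0.938), and its sign turned in 8 of the alternatives. Without control replicate 5 and knockout replicates 3 to 5, it was -1.14.

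Read as counts, 0 of 7 members were called by limma at an adjusted p under 0.05 in knockout against control, where 0.00656% of all genes tested were called. At an unadjusted p under 0.05 there were 3 (Nfil3, Tef and Hlf), against 15.1% of all genes. Nfil3 was the 1 member whose groups did not overlap, against 2.24% of all genes, or 0.991% in the higher direction. The median log2 difference of the members was 0.38, and that of all genes 0.01. In D489V against control 0 of 7 were called, against 0.0587% of all genes, and 0 had an unadjusted p under 0.05, against 9.43%. The groups overlapped for all members, while 2.16% of all genes had groups that did not. The medians were 0.17 and 0.00. Both of these comparisons use the same 5 controls, so that their values are not independent.

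In knockout against D489V, 4 of 7 members were called, all higher in knockout: Nfil3, Hlf, Bhlhe41 and Tef. Of all genes, 20.8% were called in that comparison and 10.5% were called higher, so a call here is common. With quantile normalization Bhlhe41 was not called (limma adjusted p 0.061) and Bhlhe40 was, so that the called members then went in both directions. With Bhlhe40, 5 had an unadjusted p under 0.05, against 37.7% of all genes. The groups did not overlap for Nfil3, Tef and Hlf, all higher, against 13.9% of all genes in either direction and 7.22% higher. The median log2 difference of the members was 0.42, against 0.00 over all genes. The called members thus held activators and a repressor of D-box genes together, and Dbp was not among them, with a log2 difference of -0.10 (interval -0.70 to 0.49).

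Several cell type markers moved with the knockout against D489V comparison. Of the marker lists, 8 of 8 endothelial genes, 6 of 8 adipocyte, 6 of 7 Schwann cell and 5 of 5 tested erythroid genes were called lower in knockout, and 4 of 8 mural cell genes were lower and 1 higher. The share of all genes called there, in either direction, was 20.8%. By contrast, 0 of 7 macrophage, 0 of 6 tendon and 0 of 11 muscle fibre markers were called. Summed endothelial markers were 10606 to 15658 in knockout and 18033 to 21887 in D489V, against 16313 to 24297 in controls. Summed adipocyte markers were 12936 to 23685 in knockout, 31322 to 106479 in D489V and 7632 to 72392 in controls. Schwann cell sums were 5825 to 9133, 11622 to 46866 and 8199 to 13300 in the same order, and erythroid sums 3175 to 8038, 12462 to 22164 and 5682 to 8420. Mural cell sums were 22804 to 25223, 24953 to 31309 and 24235 to 29358. No gene of these lists was at 0 in all samples, and their part in the result was not tested.

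The 10 lymphocyte markers summed to 1563 to 10365 in knockout, 1437 to 2423 in D489V and 1215 to 11067 in controls, with 0 of 7 tested genes called. The 8 slow fibre markers summed to 8528 to 205561 in knockout, 40021 to 198963 in D489V and 17200 to 191609 in controls, with 1 of 8 called higher (Casq2). Neither list had a gene at 0 in all samples. When the slow fibre score entered limma as a covariate 4 members were called in knockout against D489V, and with the lymphocyte score 2 were (Tef and Nfil3). Without the 4 samples with high Ptprc, a choice made after seeing the marker values, the knockout group kept only replicates 1 and 2. In knockout against D489V 0 of 7 members were then called, and 586 genes in place of 3181. The part of the smaller group in the lost calls was not tested. Nfil3 then differed by 0.61 (limma adjusted p 0.083), Tef by 0.32 (0.115), Bhlhe41 by 0.53 (0.125) and Hlf by 0.24 (0.364). Of the 4 called members, Hlf was the one whose difference shrank most, and its 3 high knockout samples are among the 4 left out. Against control, Nfil3 then differed by 0.72 (limma adjusted p 0.703).

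The ratio of Dbp to Nfil3, activator to repressor, was 7.57, 5.41, 2.66, 5.33 and 6.98 in controls 1 to 5. It was 2.18, 2.71, 5.51, 3.14 and 2.36 in knockout and 4.65, 8.16, 10.1, 5.15 and 2.91 in D489V. Of the knockout samples 4 lay at 3.14 or less, and replicate 3, with the highest Dbp, lay near the middle of the controls, whose range also held knockout replicates 2 and 4. The means were 5.59 ± 1.91 (SD, n = 5), 3.18 ± 1.35 and 6.196 ± 2.89. On the log2 scale, knockout minus control was -0.81 (exact two-sided permutation p 0.0794, 0.119 adjusted over the 3 comparisons). Knockout minus D489V was -0.91 (exact permutation p 0.0635, adjusted 0.119), and D489V minus control was 0.10 (exact permutation p 0.794, adjusted 0.794). The smallest p that 5 against 5 samples allow is 0.00794. Without knockout replicate 3 these first differences were -1.03 and -1.13, each with an adjusted exact permutation p of 0.0476. This sample therefore decides on which side of the threshold both fall. It is also the sample with Xist at 3165 although labelled male, and the part of that mismatch was not tested.

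**Figure D2:**
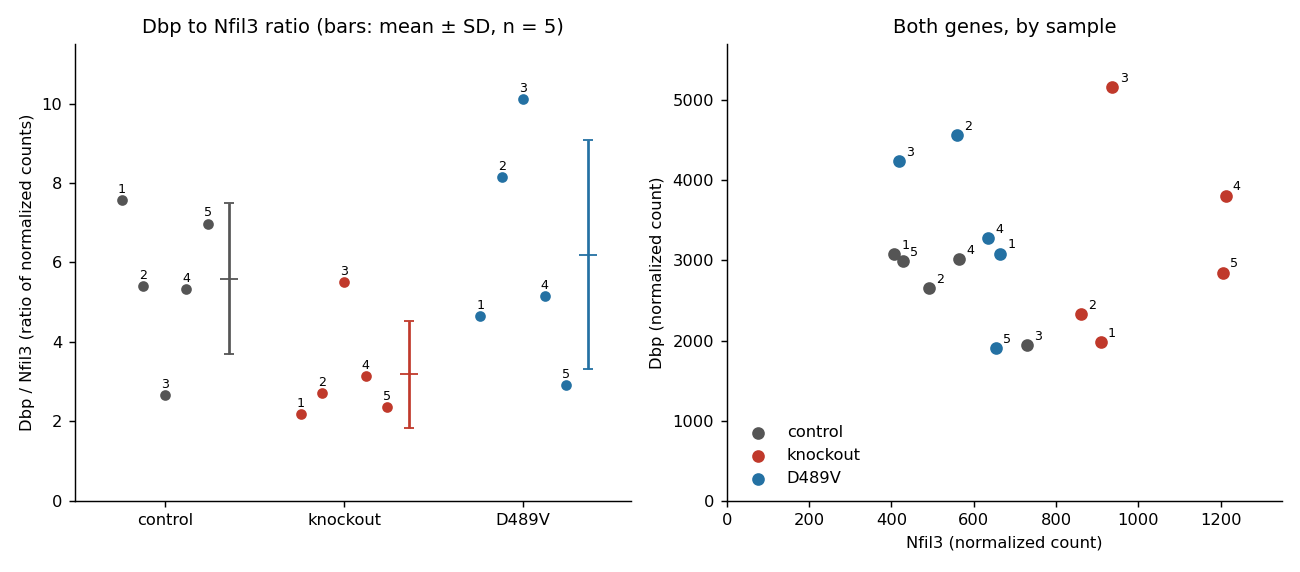
Ratio of normalized counts of Dbp to Nfil3 in each sample, with group means. The knockout samples lie between 2.18 and 5.51, with replicate 3 the highest, and the D489V samples between 2.91 and 10.1.

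Across the 15 samples the members did not form 1 pattern. Of 13 relations tested on log2 values, 6 of Dbp with the other members and 7 of Arntl with all members, 4 passed the Benjamini-Hochberg adjustment by Pearson's r. Dbp and Ciart varied together (r 0.83, rho 0.78, adjusted permutation p 0.00286 and 0.0129). The r was 0.81 without D489V replicate 5 and knockout replicate 3, the samples farthest from the median, and 0.83 for deviations from the group means. Dbp ran opposite to Arntl, which encodes BMAL1 and peaks at another phase of the day (r -0.68, rho -0.64, adjusted permutation p 0.0255 and 0.0531). Ciart also ran opposite to Arntl (r -0.64, rho -0.71, adjusted permutation p 0.0315 and 0.0287), as did Hlf (r -0.67, rho -0.58, adjusted permutation p 0.0255 and 0.0832). For deviations from the group means these were -0.78 for Dbp, -0.66 for Ciart and -0.54 for Hlf, pooled over the groups. The 5 samples of a single group are too few to give the relation within it. For Hlf the controls did not follow the pooled direction, since control 1 held both the lowest Arntl and the lowest Hlf of its group. Without D489V replicate 5 and knockout replicate 5, they were -0.80, -0.75 and -0.65. By rho, the relations of Arntl with Dbp and Hlf did not pass.

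Arntl was at 393, 513, 574, 545 and 476 in controls, 579, 472, 312, 330 and 257 in knockout, and 604, 397, 385, 411 and 786 in D489V. Its low knockout samples were replicates 3 to 5, which held the highest Hlf, and its highest sample was D489V replicate 5, which held the lowest Dbp. These 3 knockout samples are also the ones with high Ptprc and Myh7, and the part of either in the relation was not tested.

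Nfil3 did not follow Dbp. Their relation had r -0.09 and rho -0.11 (adjusted permutation p 0.887 and 0.812), and -0.32 for deviations from the group means. Tef had r 0.16 with Dbp (adjusted permutation p 0.744), and Hlf r 0.50 (adjusted permutation p 0.13) although the deviations from the group means of Hlf and Dbp gave 0.75. Bhlhe40 and Bhlhe41 had r of -0.03 with Dbp.

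Of the 13 genes of the core clock list 12 could be tested, all but Rorb. In knockout against control 0 were called by limma, and 7 had an unadjusted p under 0.05, against 15.1% of all genes. Among these 7 were Per1, Per2, Cry2, Nr1d2 and Rora with a higher mean and Npas2 with a lower one. Per2, a repressor of the clock, was at 118, 160, 591, 471 and 308 in knockout and at 70, 72, 67, 103 and 100 in controls. Knockout replicates 3 to 5 stood far above the rest, and the groups did not overlap, as for 2.24% of all genes. The log2 difference was 1.76 (SE 0.39), with a limma adjusted p of 0.227. Npas2, the partner of BMAL1 that can stand in for CLOCK, was at 101, 77, 28, 29 and 46 in knockout and at 140, 152, 154, 99 and 89 in controls. Again knockout replicates 3 to 5 were the extreme ones, and the difference was -1.31 (limma adjusted p 0.276). Clock itself had a difference of 0.00 (interval -0.24 to 0.25).

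In D489V against control 0 of these 12 were called, and 4 had an unadjusted p under 0.05, against 9.43% of all genes. Per1, Per2 and Per3 were among these 4, with a higher mean. Per1, which also responds acutely to stimuli, was at 548, 501, 2738, 2551 and 1180 in controls, at 1954 to 3249 in knockout and at 2070 to 3338 in D489V. Controls 1 and 2 were the lowest and controls 3 and 4 lay among the mutants, so that the controls themselves held both low and high samples. In knockout against D489V, where the share of all genes called is given above, 2 of 12 were called. Cry1, a repressor, was higher by 0.39 (limma adjusted p 0.0379), and Npas2 had a difference of -1.24 (limma adjusted p 0.0299). Nr1d1, the gene of REV-ERB alpha, differed by -0.27 there (limma adjusted p 0.115).

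**Figure D3:**
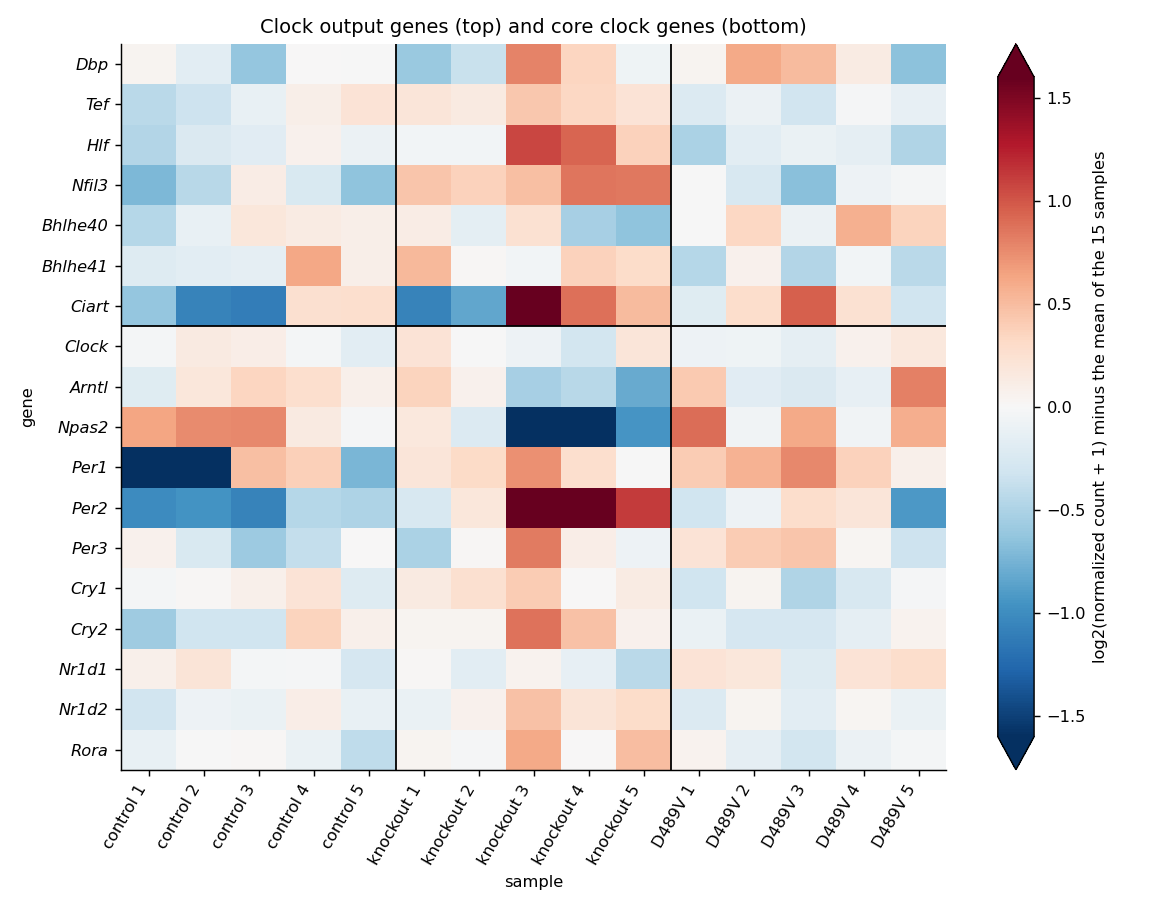
Deviation of each member and of 11 core clock genes from their own means over the 15 samples (log2 scale, colour), by sample and group. Knockout replicates 3 to 5 show Per2 above and Npas2 below their means, while Nfil3 is above its mean in all 5 knockout samples.

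Enzymes that modify clock proteins and other rhythmic output genes were read from lists. Of 9 tested modifier genes 0 were called in knockout against control (5 with an unadjusted p under 0.05) and 0 in D489V against control (0 with an unadjusted p under 0.05), both by limma. At an unadjusted p under 0.05 were 15.1% and 9.43% of all genes in these comparisons. In knockout against D489V, where 20.8% of all genes were called, 3 were higher and 1 lower: Prkaa2, an AMP-activated kinase subunit, by 0.58, and the ubiquitin ligase subunits Fbxw11 by 0.56 and Btrc by 0.35, with casein kinase Csnk1e at -0.46 (limma adjusted p 0.0469, 0.0292, 0.0313 and 0.0141). Of 14 other output genes 0 were called against control in either group, with 5 at an unadjusted p under 0.05 in each. In knockout against D489V 3 were higher and 2 lower in limma, among them Wee1, a cell cycle kinase, at 0.72 (adjusted p 0.0343), Usp2, a ubiquitin protease, at 0.67 (0.0046), Nampt, an enzyme of NAD synthesis, at 0.61 (0.0187) and Tspan4 at -0.50 (0.0159).

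Usp2 was at 6997, 5977, 7652, 9386 and 8105 in knockout, 4498, 4958, 5223, 4728 and 4351 in D489V, and 3515, 3705, 5571, 6669 and 5564 in controls. All knockout samples lay above all D489V samples, as for 7.22% of all genes, and controls 1 and 2 were the lowest of the 15. Tef showed the same placing of controls 1 and 2 as its lowest samples.

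Among 12152 genes with a mean of 50 or more, likeness to a member was taken as Spearman's rho over the 15 samples, as a description. The genes most like Dbp were Per3 (rho 0.89), Krt5 (0.87), Noc2l (0.85), Sec61b (0.83) and Srsf1 (0.81). Per3, a repressor of the clock, was at 642, 515, 407, 469 and 612 in controls, 431, 620, 1087, 657 and 575 in knockout, and 714, 807, 830, 626 and 484 in D489V, highest in knockout replicate 3 as Dbp was. Krt5, a keratin of skin, was listed at 0 in every control and had a mean of 11.2 in knockout. Its mean of 289 in D489V rests mostly on a single sample at 1439, and its rho includes the tied values at 0. The genes most opposed to Dbp were Zhx3 (-0.85), Mrpl39 (-0.84), Fbxo10 (-0.84), Cpne3 (-0.82) and Rab40b (-0.80). Of the core clock, Clock (-0.73) and Arntl (-0.64) were the most opposed.

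The genes most like Nfil3 were Prcc (0.94), Zfp410 (0.92) and Actr6 (0.92), and the most opposed were Bcl6b (-0.94), Nckap5l (-0.94) and Foxs1 (-0.93). Bcl6b had a mean of 914 in controls, 288 in knockout and 867 in D489V. In the core clock Rora, the receptor that activates through ROREs, was the most like Nfil3 (rho 0.82, rank 131 of 12152). The nearest genes of Dbp and of Nfil3 had none in common among those named here. All of these points share the same 15 libraries and their groups.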

How the data were processed

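Poly(A) RNA of mouse skeletal muscle was sequenced from strand-specific libraries, per the labels' protocols. The deposited values are a score: each is a gene's count after a normalization by the authors, rounded to a whole number. They came in 2 tables with identical control values. Trim Galore 0.6.0, cutadapt, FastQC, STAR 2.7.0e, DESeq2 1.26.0 and GRCm38 are named in the submitters' processing notes. The counting tool and annotation are not given in the sources used here, and depth in reads is unknown. All 55536 identifiers matched GENCODE M21, which gave positions and exon lengths.

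Groups and replicate numbers came from the labels. That samples are separate animals is not stated there, so p-values measure the spread between these samples. Each pair of groups was compared on log2(value + 1) in R 4.3.3 by limma 3.58.1 (two-sided, eBayes with a variance trend), for genes at 10 or more in at least 5 of 10 samples, with Benjamini-Hochberg adjustment over all genes and calls under 0.05. Changes on this scale are understated for low genes. The fit was tested on simulated data. Ratios were compared by exact permutation of 5 against 5 samples, and relations with 100000 permutations, in Python 3.11.15 with scipy 1.17.1. Promoters came from the RefSeq table.

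Named genes are the members, the core clock list, at most 4 called genes of each other list by size of change, and the nearest genes of Dbp and Nfil3 by rho. Some genes of the lists are not reported here. Alternatives changed the pseudocount, filter, scaling, variance model, weights, samples and covariates. The members, lists and tests were chosen with earlier results of these data known. Leaving out the 4 samples with high Ptprc, and both covariates, were choices made after seeing the data.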

Additional observations from a re-analysis of the deposited data

Results flagged for a closer look

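The effects of knockout and D489V, each taken against the same controls, differed by the limma test of the direct difference for 6 of the clock genes examined. Nfil3 differed by 0.81, Hlf by 0.74, Bhlhe41 by 0.50, Tef by 0.42 and Cry1 by 0.39 on the log2 scale, each higher in knockout. Npas2 differed by -1.24, lower in knockout. Of all genes tested, 20.8% were called in that comparison.

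One sample lay far from its group. Nr1d1 in D489V replicate 3 had a log2 value of 11.98, against 12.37 to 12.47 in the other D489V samples, a gap of 0.797 of the group's range. It was the only such case in 60 groups of values tested, where chance gives about 3.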

How the results depend on the processing

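Leaving out each replicate gave 1 to 7 called genes in knockout against control, 2 to 26 in D489V against control and 1398 to 3686 in knockout against D489V, where 2 to 4 members were called. It moved the Dbp to Nfil3 log2 difference from -1.06 to -0.68, from -0.14 to 0.34 and from -1.15 to -0.70 in the same order. In that step the Dbp difference of knockout against control lay between -0.02 and 0.33 and that of knockout against D489V between -0.30 and 0.05, Tef in D489V against control from -0.12 to 0.04, and Ciart in knockout against D489V from -0.32 to 0.40. In knockout against control, against 1 called gene, quantile normalization gave 3, all 15 samples in one fit 16 (with 1 member, Nfil3), the slow fibre score 17, and the fit without control 5 and knockout 3 to 5 gave 3. In D489V against control, against 9 (4 higher), pseudocount 5 gave 19, a mean of 50 or more 4, upper-quartile scaling 17 (10 higher), quantile normalization 16, robust eBayes 21, array weights 86, one fit of all samples 1, the slow fibre score 103 and the lymphocyte score 23. In knockout against D489V, against 3181 called genes and 4 members, the lymphocyte score gave 1908 and 2, and the fit without the 4 samples 586 and 0. That last fit kept only replicates 1 and 2 of the knockout group. Without these 4 samples signs turned for Bhlhe40 (0.04), Ciart (-0.32) and Dbp (-0.29) in knockout against control, Tef (0.04) in D489V against control and Ciart (-1.14) in knockout against D489V. Ciart was also at -0.51 there with the lymphocyte score and at -0.06 with array weights, which put Tef at 0.02 in D489V against control. Without the 2 farthest samples r was -0.16 for Dbp with Tef and 0.07 for Arntl with Bhlhe41. The cause was not tested.

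Same-numbered samples did not deviate together (correlations of -0.23 to 0.25, -0.37 to 0.35 and -0.10 to 0.10 in the 3 comparisons), so the numbers were not taken as pairs. A replicate block in limma gave 1, 7 and 2208 called genes and 0, 0 and 3 called members, and Bhlhe41 in knockout against D489V had a limma adjusted p of 0.051. Paired exact permutation of the ratio gave the same differences of -0.81, 0.10 and -0.91, with adjusted p of 0.375, 1 and 0.188. With 5 pairs this test has too few sign arrangements to reach a p under 0.05, so none of these could have passed. Of the members' changes under all alternatives, 440 kept direction and side of the threshold, 23 lost a call, 2 gained one and 18 turned sign.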

Other observations

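Genes that respond acutely to stimuli differed between knockout and D489V. Of 15 tested immediate early genes 13 were called lower in knockout by limma and 0 higher, among them Fosb (-2.09), Fos (-1.79), Egr1 (-1.65) and Egr3 (-1.50), transcription factors induced within minutes to hours of a stimulus. Of 13 genes of the glucocorticoid and fasting list 5 were lower and 1 higher, with Angptl4 at -1.62, Mt1 at -1.34, Cdkn1a at -0.96 and Errfi1 at -0.96. Of 12 genes of the hypoxia list 3 were lower, Car9 (-1.004), Adm (-0.73) and Ndrg1 (-0.64), and P4ha1 was higher (0.42). The controls themselves were split for some of these genes. Egr1 was at 2489 and 2840 in controls 1 and 2, and at 684, 430 and 691 in controls 3 to 5. Fos was at 1504 and 2109, and at 683, 478 and 423, in the same order. For both genes controls 3 to 5 lay within the knockout range, while Egr3 did not split the controls in this way. Against control 0 genes of these lists were called by limma in either group. At an unadjusted p under 0.05 there were 5 immediate early, 5 glucocorticoid and fasting and 2 hypoxia genes in knockout, and 10, 6 and 3 in D489V. The shares of all genes at that level were 15.1% in knockout and 9.43% in D489V. Of all genes tested 20.8% were called in knockout against D489V.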
